A study of Homo sapiens with 6 samples.

Results

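The libraries of MDA-MB-231BR cells that carry replicate number 1 were compared with those that carry number 3, across both short hairpin RNAs (shRNAs) of the study. The comparison holds 4 of the 6 libraries: control shRNA replicate 1 and ACSS2 shRNA replicate 1 on one side, and control shRNA replicate 3 and ACSS2 shRNA replicate 3 on the other. The remaining 2 libraries, which carry number 2, served as an intermediate check. The libraries were grouped by the number in their labels. The pair of numbers 1 and 3 was chosen with earlier results of these data known.

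MDA-MB-231BR, a line selected for growth in the brain, was derived from MDA-MB-231 cells, an established line of human triple-negative breast cancer. All 6 libraries come from monocultures of this line, grown in DMEM with fetal bovine serum and transduced with lentivirus made in HEK-293T cells, followed by antibiotic selection. The control cells stably express a control shRNA and the other cells one against ACSS2, an acetyl-CoA synthetase of nucleus and cytosol that uses acetate. Each shRNA has 3 libraries, described as biological replicates and carrying a batch tag with the numbers 1 to 3 in both. The labels do not say what shared step the number marks, whether a passage, a day, a density at harvest, a selected pool or a hairpin sequence, and these cannot be told apart. P-values below set the difference between numbers against the spread left in these libraries once hairpin and number are accounted for. Each number occurs once per hairpin, so what the number marks is not itself replicated, and the differences may be technical.

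As background, proliferating cells make the enzymes of DNA replication under the E2F transcription factors, which the retinoblastoma protein family holds back outside S phase. The genes of mitosis are switched on later in the cycle through FOXM1, the MuvB complex and MYBL2. Transcripts of both groups fall when cells leave the cycle. Cultured cells also carry programs that answer the medium and the neighbouring cells: hypoxia and glycolysis genes, the thioredoxin-binding TXNIP that answers glucose, sterol synthesis under SREBP2, NF-kB cytokines, and immediate early genes that answer serum, stretch or handling within minutes.

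Estimated counts were compared with edgeR in a model with the hairpin and the replicate number as additive terms, and levels are CPM, counts scaled to library size with TMM factors, always given in the order of numbers 1, 2 and 3. Of 13003 genes tested, 2236 (17.2%) were higher in number 3 than in number 1 and 2258 (17.4%) were lower, at an edgeR adjusted p under 0.05. The change was at least 2-fold in 818 of the higher and 696 of the lower genes, and at least 4-fold in 208 and 83. In the same model the hairpin called 3265 genes (25.1%), 518 of them by at least 2-fold, and 9 genes (0.0692%) in a model without the number, 3 higher (0.0231%) and 6 lower (0.0461%). The biological coefficient of variation was 11.8% with the number in the model and 26.6% without it. Without control replicate 3 the calls were 1340 higher and 1276 lower.

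Both hairpins carried the difference. Calculated separately, the log2 ratio of number 3 to number 1 in control cells and the same ratio in ACSS2 shRNA cells share no library, and across the 13003 genes they correlated by a Pearson r of 0.76 and a Spearman rho of 0.72. Genes are not independent replicates, and this is a description. The first principal component of log2 CPM, with 44.4% of the variance, placed the number 1 libraries at -42.04 and -43.21, the number 2 libraries at 7.64 and 5.34 and the number 3 libraries at 40.75 and 31.52. A ratio above 0 in both hairpins was found in 2236 of 2236 genes called higher. For those called lower, 2257 of 2258 had a ratio below 0 in both. Among all 13003 genes the 2 ratios had the same sign in 9913. A call in the additive model needs the hairpins to agree, so the agreement among called genes was largely set by that selection. The ratio was the larger one in control cells for 55.9% of the genes called higher and 61.9% of those called lower, against 54.8% of all genes. A test of whether the 2 hairpins differ in this ratio was not possible, because it leaves no residual degree of freedom.

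**Figure D1:**
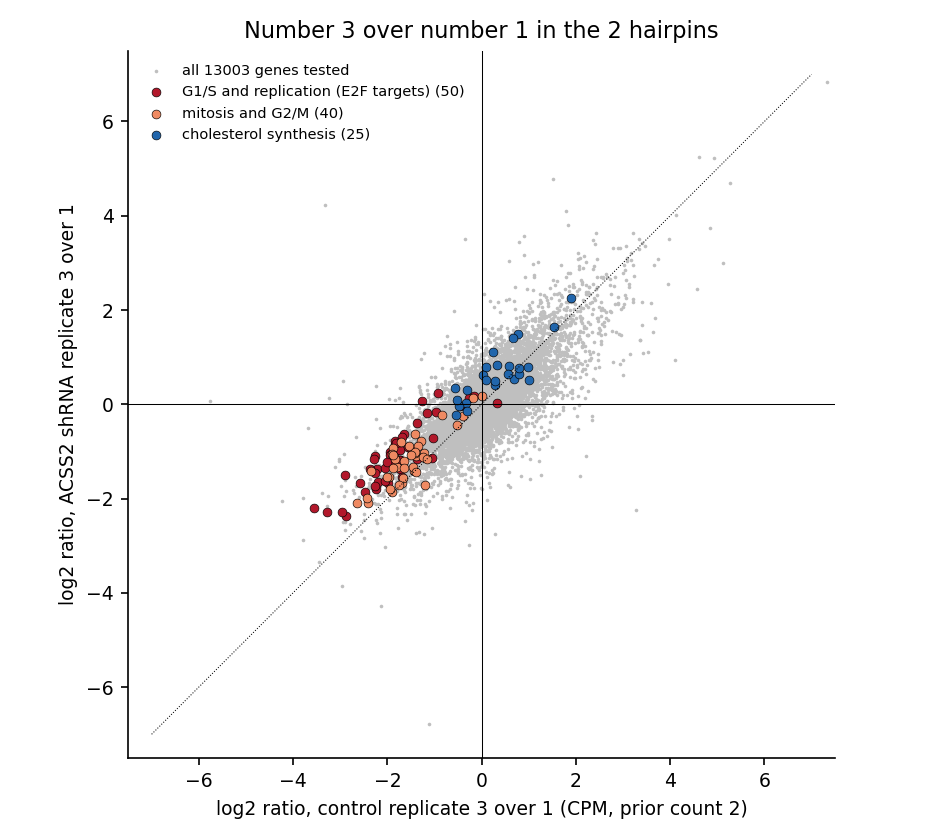
Each point is a gene, placed by its log2 CPM ratio of number 3 to number 1 in control shRNA cells (x axis) and in ACSS2 shRNA cells (y axis), and the dotted line marks equal ratios. Grey points are all 13003 genes tested, and most of the 50 replication genes and 40 mitosis genes lie at the lower left, while 18 of the 25 cholesterol synthesis genes lie above 0 in both.

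Each library held from 15048275 to 18608124 counts, with the most in the number 1 library of each hairpin. Genes defining MDA-MB-231, among them VIM, CD44 and MSN, summed to between 12628 and 14794 CPM in every library. Among the markers of other cells, 7 of HEK293-like cells summed to 46.4 and 44.6 CPM in number 1 and 52.2 and 56.6 CPM in number 3. Of these LIN28B and GPC3 were at 0 in all libraries, and ZIC2, the 1 member tested, did not pass (log2 fold change 0.25, edgeR adjusted p = 0.171). Immune markers summed to 409 and 385 CPM in number 1 and 947 and 842 CPM in number 3, nearly all of it CD68, a lysosomal protein. Among the 2 immune markers tested, 1 was called higher (log2 fold change 1.18) and 1 lower (-1.52). Neural and glial markers summed to 123 and 77.7 CPM in number 1 and 255 and 199 CPM in number 3. Luminal epithelial markers summed to 1058 and 881 CPM in number 1 and 558 and 597 CPM in number 3, with 1 of 6 tested higher and 3 lower. Fibroblast markers stayed at or below 55.3 CPM. Endothelial markers summed to 325 and 220.1 CPM in number 1 and 365 and 360.2 CPM in number 3, with 2 of 6 tested higher and a median of 0.86. By GC content of the transcripts, genes in the top class (58.7 to 74.7% GC) were more often higher (643) than lower (438), with a median ratio of -0.03 in control and 0.15 in ACSS2 shRNA cells. The part of these values in the results below was not tested.

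The genes of DNA replication and of mitosis were lower in number 3 than in number 1. Of 50 genes of G1/S entry and DNA replication, 45 (90.0%) were called lower, with a median log2 fold change of -1.47 against -0.01 for all genes tested. Of 40 genes of mitosis and G2/M, 37 (92.5%) were called lower, with a median of -1.43. By edgeR 0 members of either list were called higher, also at an unadjusted p under 0.05, and DESeq2 and limma on TPM called 0 higher as well. The background is 17.4% of all genes called lower. Both number 3 libraries lay below both number 1 libraries in 43 of the 50 and in 37 of the 40, against 29.0% of all genes. The replication genes had a median ratio of -1.82 in control and -1.12 in ACSS2 shRNA cells, and the mitosis genes of -1.59 and -1.17. Summed over its members, the replication list had 3585, 2042 and 1128 CPM with the control hairpin and 2050.3, 1398 and 1120.4 CPM with the ACSS2 hairpin. The mitosis list summed to 6237, 4758 and 2060.0 CPM with the control hairpin and 3169, 2346 and 1456 CPM with the ACSS2 hairpin. Control cells stood above ACSS2 shRNA cells in number 1 for both sums, and the hairpins lay closest in number 3.

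GINS2, MCM10 and RRM2 changed most among the replication genes whose average level reached 5 CPM. GINS2, a subunit of the GINS complex of the replicative helicase, had 39.1, 14 and 3.23 CPM with the control hairpin and 16.1, 8.67 and 3.41 CPM with the ACSS2 hairpin. Both number 3 libraries lay far below both number 1 libraries, with number 2 between them (log2 fold change -2.94, SE 0.27, edgeR adjusted p = 1.16e-05). RRM2, the regulated subunit of ribonucleotide reductase, which makes deoxyribonucleotides, lies on chromosome 2 (10081869 to 10266458, GRCh38) and had 288, 125 and 36.9 CPM with the control hairpin and 138, 63.1 and 28.4 CPM with the ACSS2 hairpin. The number 1 and number 3 libraries of RRM2 did not overlap, and the change was 6.15-fold (log2 -2.62, SE 0.18, edgeR adjusted p = 2.13e-06). MCM10, a replication initiation factor, was 6.44-fold lower and FEN1, the flap endonuclease of Okazaki fragments, 4.00-fold lower. E2F1, an activator of this program, had 61.4, 40.4 and 18.3 CPM with the control hairpin and 31.5, 28.5 and 17.9 CPM with the ACSS2 hairpin. It too was lower in number 3, by 2.44-fold (log2 -1.29, SE 0.20, edgeR adjusted p = 3.99e-04), and the number 3 values of the 2 hairpins were nearly equal. The 5 replication genes that did not pass were RFC4, CCNE1, CDK2, E2F7 and SLBP, with log2 fold changes between -0.33 and 0.17.

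Regulators of the mitotic program were lower together with its structural genes. MKI67, the Ki-67 protein of the chromosome surface and a common proliferation marker, had 778, 414 and 124 CPM with the control hairpin and 366, 193 and 85.3 CPM with the ACSS2 hairpin. Within each hairpin the order was number 1, 2, 3, and the number 3 libraries were lower than every other library (log2 fold change -2.37, SE 0.17, edgeR adjusted p = 3.51e-06). FOXM1, a transcription factor of G2/M genes, had 329, 151 and 60.3 CPM with the control hairpin and 138, 65.2 and 34.4 CPM with the ACSS2 hairpin, a 4.67-fold difference (edgeR adjusted p = 2.44e-06). MYBL2, the B-Myb partner of MuvB, had 249, 82.4 and 25.6 CPM with the control hairpin and 80.0, 37.6 and 17.8 CPM with the ACSS2 hairpin, a 6.67-fold difference (edgeR adjusted p = 4.64e-06). For FOXM1 and MYBL2 as well, control replicate 1 stood highest and the number 3 libraries did not overlap with number 1. KIF4A, a chromosome-binding kinesin, was 4.80-fold lower and CDCA8, the borealin subunit of the chromosomal passenger complex, 3.45-fold lower. PTTG1 (-0.32), ECT2 (-0.03) and BUB3 (0.09) did not pass.

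Promoters of these genes hold the short motifs by which the E2F and MuvB programs are known, and 4 of them are shown because they belong to named genes of the 2 lists that changed most. The windows run from 250 bases before to 50 after the RefSeq start on GRCh38.p14, 5′ to 3′ on the gene's strand, with the motif in capitals. They are the minus strand of chr16:85688905-85689204 for GINS2 and of chr10:128126374-128126673 for MKI67. For KIF4A the window is the plus strand of chrX:70289854-70290153, and for CDCA8 that of chr1:37692266-37692565. The E2F match in GINS2 begins 31 bases before the start. The cell cycle homology (CHR) matches begin 47 and 29 bases before it in MKI67, 34 in KIF4A and 23 in CDCA8.

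GINS2: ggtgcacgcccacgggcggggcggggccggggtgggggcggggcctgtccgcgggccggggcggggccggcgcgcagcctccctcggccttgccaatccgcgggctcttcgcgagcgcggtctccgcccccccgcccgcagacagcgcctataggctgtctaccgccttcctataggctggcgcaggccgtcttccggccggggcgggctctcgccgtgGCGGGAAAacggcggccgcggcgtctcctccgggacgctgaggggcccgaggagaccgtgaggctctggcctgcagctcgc
MKI67: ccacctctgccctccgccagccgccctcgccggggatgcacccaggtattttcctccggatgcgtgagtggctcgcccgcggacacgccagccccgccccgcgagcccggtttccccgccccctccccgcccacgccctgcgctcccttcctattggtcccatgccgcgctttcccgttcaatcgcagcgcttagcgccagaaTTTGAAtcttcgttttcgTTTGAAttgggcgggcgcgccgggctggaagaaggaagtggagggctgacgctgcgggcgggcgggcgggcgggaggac
KIF4A: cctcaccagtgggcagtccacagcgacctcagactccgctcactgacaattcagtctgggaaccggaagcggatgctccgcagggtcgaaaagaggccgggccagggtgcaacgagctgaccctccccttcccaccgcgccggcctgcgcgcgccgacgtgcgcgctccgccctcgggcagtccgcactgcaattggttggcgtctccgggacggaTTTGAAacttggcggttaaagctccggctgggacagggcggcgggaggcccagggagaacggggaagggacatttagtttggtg
CDCA8: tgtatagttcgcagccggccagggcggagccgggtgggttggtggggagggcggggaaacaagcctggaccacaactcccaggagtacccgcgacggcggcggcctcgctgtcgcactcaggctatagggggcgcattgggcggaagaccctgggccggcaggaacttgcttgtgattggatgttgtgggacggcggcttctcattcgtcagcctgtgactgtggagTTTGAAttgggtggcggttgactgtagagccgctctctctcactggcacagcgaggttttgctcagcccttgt

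An E2F motif (TTTGGCGC, TTTCGCGC or TTTCCCGC on either strand) was present in 22 of the 42 replication genes with a RefSeq promoter (52.4%), against 4.62% of the 10589 tested genes that have one. A CHR motif (TTTGAA on either strand) was present in 25 of 33 mitosis genes (75.8%), against 9.73% of all. The lists were drawn up as E2F targets and as mitosis genes, so these shares describe the lists. Among genes called lower that belong to neither list, 5.99% held the E2F motif and 13.5% the CHR motif. Among genes called higher the shares were 3.17% and 8.05%. A match says that the letters occur in the window and nothing about binding.

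The genes that regulate G1 changed in both directions. Of 23 tested, 5 were higher and 5 lower, close to the background of 17.2% and 17.4%. RBL2, the p130 member of the retinoblastoma family, which represses E2F targets in resting cells, had 37.1, 77.5 and 89.4 CPM with the control hairpin and 49.3, 83.1 and 102 CPM with the ACSS2 hairpin. It was higher in both number 2 and number 3 libraries than in either number 1 library (log2 fold change 1.15, SE 0.14, edgeR adjusted p = 7.95e-05). RBL1, the p107 member and itself an E2F target, moved the other way, from 28.8 and 20.0 CPM in number 1 to 6.97 and 7.51 CPM in number 3 (3.30-fold lower, edgeR adjusted p = 5.34e-05). CCNG1 (2.07-fold) and the CDK inhibitor CDKN1C (2.03-fold) were higher, and so was MXI1 (1.34-fold), a MAX-binding antagonist of MYC. CCND2, a D-type cyclin, was higher but stayed at or below 2.26 CPM in every library. CDKN2C, CCND3, CDK4 and RB1 were lower, by 1.98-fold for CDKN2C and 1.55-fold for RB1, and RB1 lost its call without either control replicate 1 (log2 -0.44, edgeR adjusted p = 0.112) or control replicate 3 (-0.37, 0.331). CDKN1A, the p21 inhibitor, did not pass (log2 fold change -0.44, edgeR adjusted p = 0.0593), and CCND1 was at 0.04.

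**Figure D2:**
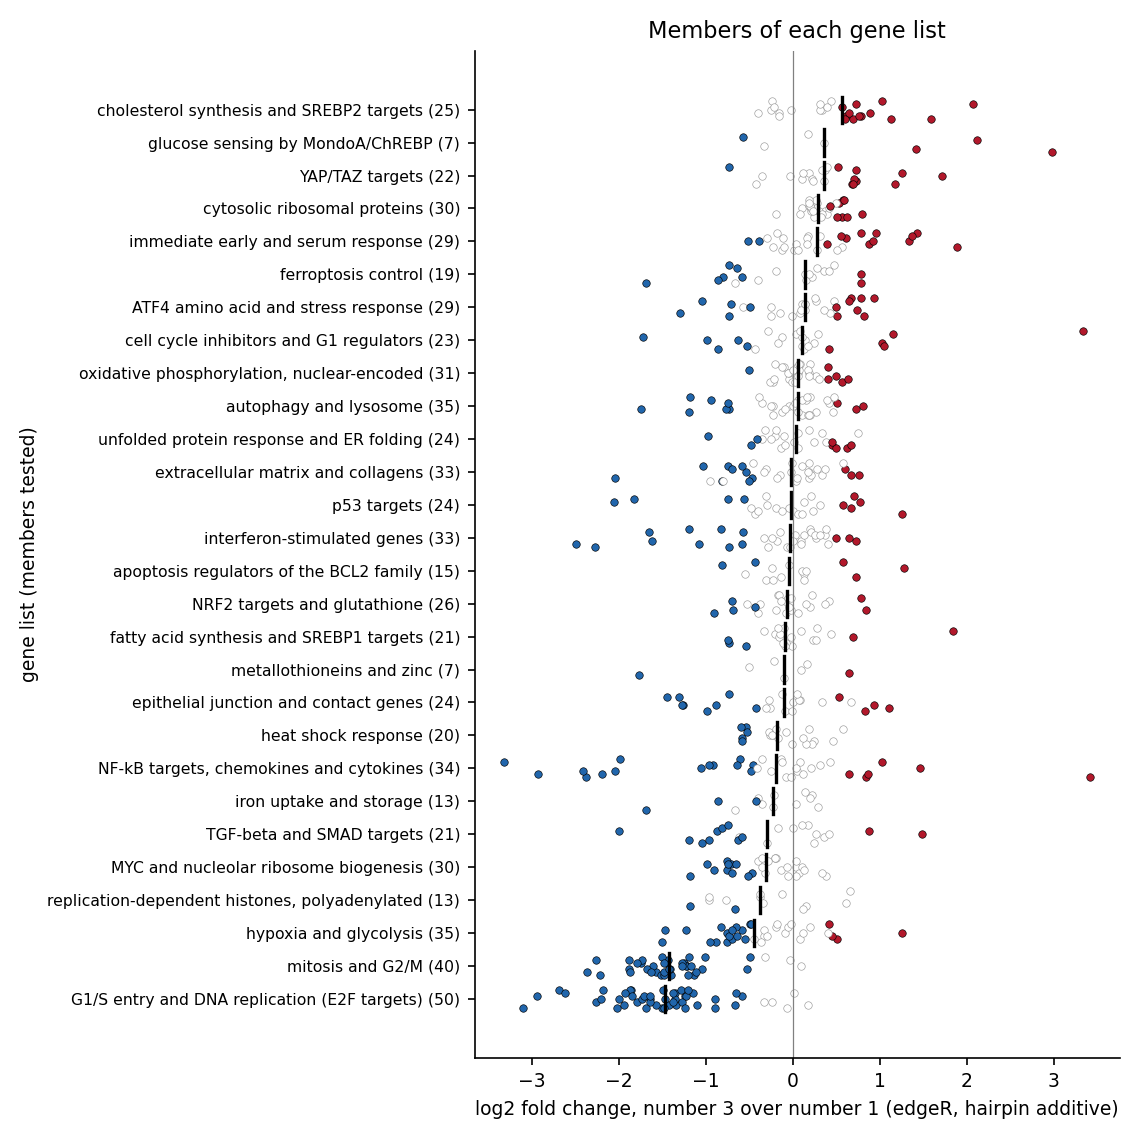
Each row is a gene list with the number of members tested, each point a member's log2 fold change of number 3 over number 1, and each bar the list's median. Red points were called higher, blue points lower and open points did not pass at an edgeR adjusted p under 0.05; the 2 cell cycle lists at the bottom have medians of -1.43 and -1.47.

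Growth-related lists divided. Of 30 genes of MYC and nucleolar ribosome biogenesis, 11 (36.7%) were lower, against 17.4% of all genes, and 0 higher. The median was -0.31. At an unadjusted p under 0.05 edgeR gave 2 higher, and DESeq2 called 1. UTP20, of the small-subunit processome, was 2.27-fold lower, NOP56, of the box C/D nucleolar particle, 1.99-fold and POLR1A, the largest subunit of RNA polymerase I, 1.87-fold. MYC itself did not pass, and without control replicate 3 the count was 7. Of 30 cytosolic ribosomal protein genes, 8 (26.7%) were higher, against 17.2% of all genes, with a median of 0.29. In this list 0 were lower, also at an unadjusted p and by DESeq2 and limma. RPL4 had 1822, 1997 and 2501 CPM with the control hairpin and 895, 1105 and 1946 CPM with the ACSS2 hairpin. The number 3 libraries of RPL4 lay above both number 1 libraries, though ACSS2 shRNA replicate 3 only slightly above control replicate 1 (log2 fold change 0.79, SE 0.19, edgeR adjusted p = 0.00597). The median ratio of the list was 0.14 in control and 0.50 in ACSS2 shRNA cells, and without ACSS2 shRNA replicate 3 edgeR called 0 of the 30, and 0 at an unadjusted p under 0.05, while without ACSS2 shRNA replicate 1 it called 3 higher and 1 lower. All genes with ribosomal protein symbols took 8.79% and 6.12% of counts in number 1 and 9.88% and 8.65% in number 3. Of 31 nuclear-encoded oxidative phosphorylation genes, 5 (16.1%) were higher, near the background of 17.2%, with UQCRB of complex III first at 1.55-fold, and NDUFB10 was lower, with a median of 0.06. Leaving out control replicate 3 or ACSS2 shRNA replicate 3 gave 2 higher members of this list.

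Hypoxia and glycolysis genes were more often lower than higher in number 3. Of 35 tested, 17 (48.6%) were lower, against 17.4% of all genes, and 4 (11.4%) were higher, against 17.2%, with a median of -0.45. LDHA, which makes lactate from pyruvate (chromosome 11, 18393934 to 18408218), had 2301, 971 and 901 CPM with the control hairpin and 1678, 1132 and 792 CPM with the ACSS2 hairpin. The number 1 library was the highest of each hairpin, and in control cells numbers 2 and 3 were close (log2 fold change -1.23, SE 0.18, edgeR adjusted p = 3.38e-04). NDRG1, a hypoxia-induced gene, had 2184, 343 and 663 CPM with the control hairpin and 2748, 1314 and 1247 CPM with the ACSS2 hairpin. Its number 1 libraries were again the highest, and in control cells number 2 was below number 3 (2.78-fold lower in number 3, edgeR adjusted p = 0.00161). EGLN3, an oxygen-sensing prolyl hydroxylase, was 2.84-fold lower and PGAM1, phosphoglycerate mutase, 1.84-fold lower. The 4 higher members were ALDOC, SLC2A3, ENO2 and MXI1, of which MXI1 lost its call in DESeq2 (adjusted p = 0.0812). ALDOC, the brain-type aldolase, went from 37.3 and 31.9 CPM in number 1 to 79.6 and 86.5 CPM in number 3 (edgeR adjusted p = 0.00101). For the list, 20 members were lower and 1 higher in number 2 over 1, against 0 lower and 3 higher in number 3 over 2. The shares over all genes were 11.1% lower and 12.2% higher in number 2 over 1, and 6.89% lower and 4.78% higher in number 3 over 2. Without control replicate 1 the number of lower members was 9, and without control replicate 3 it was 11.

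Of the genes that answer the glucose sensors MondoA and ChREBP, TXNIP and ARRDC4 were higher in number 3. TXNIP, an arrestin-like protein that binds thioredoxin and curbs glucose uptake (chromosome 1, 145921587 to 145996631), had 265, 1054 and 2153 CPM with the control hairpin and 249.8, 538 and 1933 CPM with the ACSS2 hairpin. The number 3 libraries were the highest and number 2 lay between in both hairpins (7.91-fold, log2 2.98, SE 0.22, edgeR adjusted p = 3.51e-06). ARRDC4, its paralog and another classical MondoA target, had 6.89, 24.0 and 25.6 CPM with the control hairpin and 18.5, 38.3 and 37.8 CPM with the ACSS2 hairpin (2.66-fold, edgeR adjusted p = 2.36e-04). Control replicates 2 and 3 lay close to each other and above ACSS2 shRNA replicate 1. Of the 7 genes of this list, 3 (42.9%) were higher, against 17.2% of all genes, and 1 (14.3%) was lower, against 17.4%. The lower gene was ARRDC3 (1.49-fold, log2 -0.57), which was at -0.39 without ACSS2 shRNA replicate 3. The third higher gene, MLXIPL, was at or below 1.01 CPM in all libraries. MLXIPL lost its call in DESeq2 (adjusted p = 0.14) and in limma on log2(TPM + 1) (adjusted p = 0.0927).

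**Figure D3:**
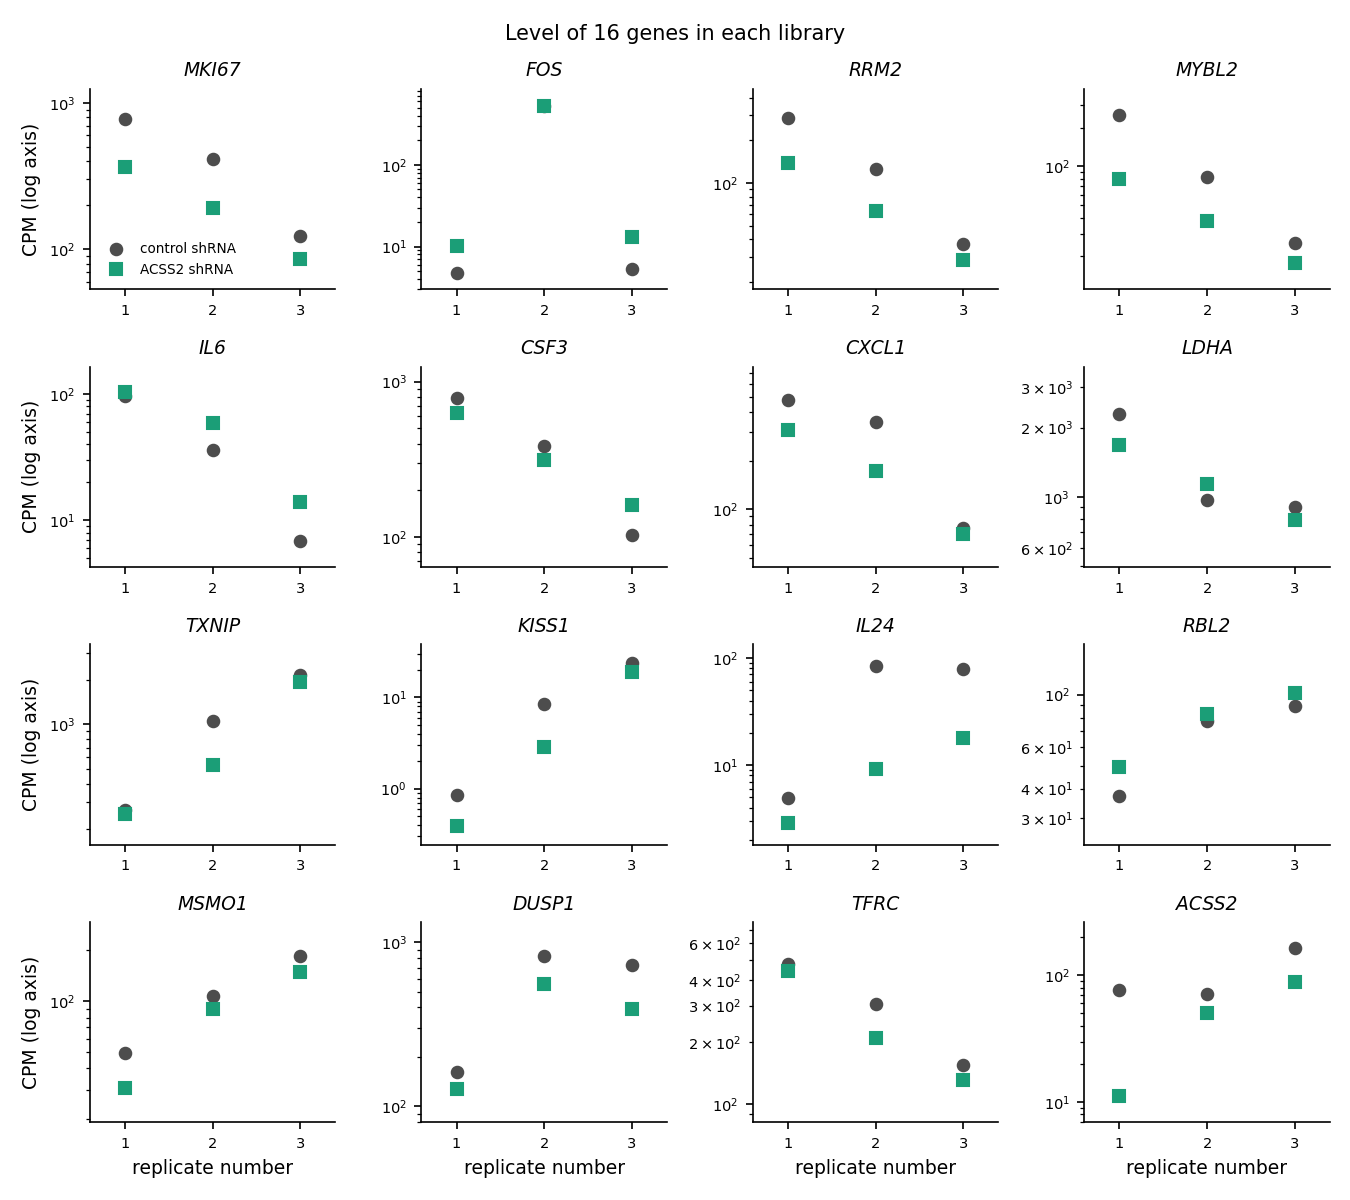
CPM of 16 genes on log axes, each with its own range, by replicate number, with control shRNA libraries as dots and ACSS2 shRNA libraries as squares. MKI67, RRM2, MYBL2, IL6, CSF3, CXCL1 and LDHA are highest in number 1, TXNIP and KISS1 highest in number 3, and FOS is high in both number 2 libraries, where the control dot lies under the square.

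Cholesterol synthesis genes were higher in number 3. Of 25 tested, 13 (52.0%) were higher and 0 lower, with a median of 0.56 and a background of 17.2%. At an unadjusted p under 0.05 edgeR gave 1 lower, limma on TPM called 1 lower and DESeq2 called 0. MSMO1, the sterol C4-methyl oxidase (chromosome 4, 165327666 to 165343164), had 49.7, 108 and 184 CPM with the control hairpin and 30.7, 89.7 and 148 CPM with the ACSS2 hairpin. All number 3 values lay above all number 1 values (4.19-fold, log2 2.07, SE 0.15, edgeR adjusted p = 3.51e-06). HMGCS1, which makes the HMG-CoA of the mevalonate pathway, was 3.02-fold higher, FDFT1, squalene synthase, 2.19-fold, and SC5D, a late sterol desaturase, 1.85-fold. Both number 3 libraries lay above both number 1 libraries in 17 of the 25, against 28.0% of all genes. The median ratio was 0.29 in control and 0.63 in ACSS2 shRNA cells. DHCR7 and LSS did not pass. Fatty acid synthesis genes did not move together: of 21 tested, 2 (9.52%) were higher (ACSS2 and DGAT2) and 3 (14.3%) lower (SREBF1, FADS1 and FADS2). The background was 17.2% and 17.4%, and the median of the list was -0.09. All 3 lower calls were lost without control replicate 1 or without control replicate 3.

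ACSS2, the gene targeted by the hairpin, differed between the numbers as well. The gene lies on chromosome 20 (34866614 to 34955813) and had 76.3, 71.2 and 164 CPM with the control hairpin and 11.1, 50.5 and 88.7 CPM with the ACSS2 hairpin. The library of the ACSS2 hairpin was the lower of the pair in every number, but the ACSS2 shRNA library of number 3 lay above control replicates 1 and 2. Number 3 was 3.58-fold above number 1 (log2 1.84, SE 0.37, edgeR adjusted p = 0.00211), by a log2 ratio of 1.10 in control and 2.98 in ACSS2 shRNA cells. The call was lost in DESeq2 (1.89, adjusted p = 0.0695). Whether the knockdown itself differed between the numbers was not tested.

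Inflammatory cytokine genes were more often lower than higher. Of 34 NF-kB targets, chemokines and cytokines, 14 (41.2%) were lower, against 17.4% of all genes, and 6 (17.6%) higher, against 17.2%. The median was -0.20. IL6, an inflammatory cytokine (chromosome 7, 22725889 to 22732002), had 95.9, 36.3 and 6.85 CPM with the control hairpin and 103, 58.8 and 14 CPM with the ACSS2 hairpin. It was close between the hairpins in number 1 and lower in both number 3 libraries than in any other (10.0-fold, log2 -3.32, SE 0.21, edgeR adjusted p = 9.09e-07). The colony-stimulating factor CSF2 had 119.8, 45.8 and 8.52 CPM with the control hairpin and 50.0, 45.0 and 12.5 CPM with the ACSS2 hairpin (7.63-fold lower, edgeR adjusted p = 3.45e-05). CSF3 (5.33-fold), the neutrophil chemokine CXCL1 (5.22-fold) and complement C3 (3.98-fold) were lower too. The 6 higher members were IL24, IL1A, IL32, LIF, CSF1 and BIRC3. CSF1 lost its call in DESeq2 (log2 fold change 0.83, adjusted p = 0.167), and was at 0.35 without ACSS2 shRNA replicate 1. IL24, a cytokine of the IL-10 family, had 4.90, 83.6 and 78.1 CPM with the control hairpin and 2.89, 9.24 and 17.7 CPM with the ACSS2 hairpin, so that number 3 was higher in both hairpins but at different levels (10.7-fold, log2 3.42, SE 0.38, edgeR adjusted p = 4.83e-05). IL1A went from 32.3 and 46.8 CPM in number 1 to 94.0 and 123 CPM in number 3 (2.76-fold, edgeR adjusted p = 1.82e-05).

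Interferon-stimulated genes gave 10 lower (30.3%) and 3 higher (9.09%) of 33, against 17.4% and 17.2% of all genes, with a median of -0.03. IFIT2, an interferon-induced RNA-binding protein, had 24.7, 10.0 and 5.42 CPM with the control hairpin and 46.1, 14.5 and 6.82 CPM with the ACSS2 hairpin (5.61-fold lower, edgeR adjusted p = 4.29e-06). Its number 1 libraries were highest in both hairpins, and IFIT1 and IFIT3 followed the same order at 4.84-fold and 3.07-fold. The 3 higher members were the immunoproteasome subunits PSMB8 and PSMB9 and IFI6, each by at most 1.66-fold. MX1 and OAS1 did not pass. Without ACSS2 shRNA replicate 3 the number of lower members was 5 and of higher members 1, with PSMB9 and IFI6 lost (edgeR adjusted p = 0.0664 and 0.17), and IFI6 was lost in DESeq2 as well (adjusted p = 0.0683) and without control replicate 1 or 3 (edgeR adjusted p = 0.107 and 0.114).

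Immediate early and YAP/TAZ genes were more often higher in number 3, and TGF-beta targets more often lower. Of 29 immediate early and serum response genes, 11 (37.9%) were higher and 2 (6.90%) lower, against 17.2% and 17.4% of all genes. The median of the list was 0.28. DUSP1, a MAP kinase phosphatase, had 161, 828 and 724 CPM with the control hairpin and 128, 554 and 394 CPM with the ACSS2 hairpin. Numbers 2 and 3 both lay above number 1, and number 3 did not exceed number 2 (3.72-fold above number 1, edgeR adjusted p = 9.78e-06). SPRY2 (2.59-fold) and DUSP5 (2.54-fold), feedback inhibitors of the same pathway, and the nuclear receptor NR4A1 (2.69-fold) were higher. The lower members, JUN and ETV4, had adjusted p = 0.0488 each in edgeR, and with DESeq2's size factors in edgeR both lost it (0.059 and 0.0646). Leaving out 1 library, or both of number 2, left 0 or 1 of them: JUN kept its call only without control replicate 1, where ETV4 was at -0.09 (edgeR adjusted p = 0.685). The 0 came without control replicate 3 (edgeR, 0 at an unadjusted p under 0.05). Of 22 YAP/TAZ targets, 9 (40.9%) were higher and 1 (4.55%), NT5E, was lower, with a median of 0.36. DLC1 (2.25-fold), RBMS3 (3.27-fold) and GADD45A (2.38-fold) had the smallest p, and the classical targets CCN1 and CCN2 were higher by 0.68 and 0.73 on the log2 scale. CCN2 was highest in number 2, with 310.4, 1193 and 641 CPM with the control hairpin and 385, 956 and 521 CPM with the ACSS2 hairpin. The summed YAP/TAZ list was highest there too, at 5569, 9370.3 and 8663 CPM and at 5783, 7793 and 6813 CPM. Number 2 lay between numbers 1 and 3 in both hairpins for 2 of the 22 members. Without control replicate 3 the YAP/TAZ count was 4 and without control replicate 1 it was 5. Of 21 TGF-beta and SMAD targets, 9 (42.9%) were lower and 2 (9.52%) higher, with a median of -0.30. TGFBI, an extracellular adhesion protein, had 47.6, 13.1 and 15 CPM with the control hairpin and 182, 74.5 and 36.4 CPM with the ACSS2 hairpin (4.00-fold lower, edgeR adjusted p = 4.63e-05), and the activin antagonist FST was 2.79-fold higher. Without ACSS2 shRNA replicate 3 the lower count of this list was 4.

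Stress lists mostly stayed near the background or moved in both directions. The background was 17.2% of all genes higher and 17.4% lower. Of these lists, heat shock genes had the largest share lower, at 25.0%. Of 29 ATF4 targets, 8 (27.6%) were higher and 5 (17.2%) lower. CTH, of cysteine synthesis (1.90-fold), and ASNS, asparagine synthetase (1.77-fold), were among the higher, and the transcription factor ATF5 (2.46-fold) among the lower. The unfolded protein response gave 5 higher (20.8%) and 3 lower (12.5%) of 24, with the chaperone HSPA5 1.54-fold higher and CRELD2 1.98-fold lower. Heat shock genes gave 5 lower and 0 higher of 20 (also 0 at an unadjusted p and by DESeq2 and limma), led by DNAJA1 (1.45-fold) and BAG3 (1.51-fold), and without control replicate 3 edgeR called 0 of the 20 lower, with 3 at an unadjusted p under 0.05. Of 24 p53 targets, 5 (20.8%) were higher and 4 (16.7%) lower. DDB2, a DNA damage sensor of nucleotide excision repair, had 16.1, 5.70 and 2.65 CPM with the control hairpin and 12.1, 6.16 and 4.09 CPM with the ACSS2 hairpin (4.17-fold lower, edgeR adjusted p = 1.00e-04), whereas CDKN1A, MDM2 and BAX did not pass. Among 15 regulators of the BCL2 family, 3 (20.0%) were higher and 2 (13.3%) lower, with BCL2A1 2.43-fold higher. These small counts moved with single libraries: without control replicate 3 there was 1 higher member of the unfolded protein response, 1 higher and 2 lower p53 targets and 1 of each in the BCL2 family. Without ACSS2 shRNA replicate 3 edgeR called 0 lower members of the BCL2 family, with 0 at an unadjusted p under 0.05, and BMF and BAK1 had adjusted p = 0.503 and 0.152. Without control replicate 1 the ATF4 list had 3 lower members.

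Redox and lysosome lists had calls in both directions and the iron list had lower calls, against a background of 17.2% of all genes higher and 17.4% lower. Of 26 NRF2 targets and glutathione genes, 2 were higher (OSGIN1 and SLC7A11) and 4 lower, among them NQO1 (1.88-fold). SLC7A11, the cystine importer, had 20.5, 51.7 and 48.2 CPM with the control hairpin and 24.3, 24.9 and 32.1 CPM with the ACSS2 hairpin. The number 1 libraries were the lowest of each hairpin, though only slightly so in ACSS2 shRNA cells (log2 fold change 0.78, SE 0.23, edgeR adjusted p = 0.0204), and without control replicate 1 the value was 0.28 (edgeR adjusted p = 0.269). GPX4, the lipid peroxide reductase, had 436, 358 and 469.9 CPM with the control hairpin and 478, 458 and 543 CPM with the ACSS2 hairpin and did not pass (0.15, edgeR adjusted p = 0.467). Of 19 ferroptosis genes, 2 were higher and 6 lower, and of 13 iron genes 3 were lower and 0 higher, also at an unadjusted p and by DESeq2 and limma. TFRC, the transferrin receptor, had 476, 306 and 155 CPM with the control hairpin and 441, 210.3 and 131 CPM with the ACSS2 hairpin, with the same order in both hairpins and nearly equal levels in number 1 (3.22-fold lower, log2 -1.69, SE 0.15, edgeR adjusted p = 1.16e-05). Without control replicate 3 there were 3 lower ferroptosis genes and 1 lower NRF2 target. Autophagy and lysosome genes gave 3 higher and 7 lower of 35, with CTSD, cathepsin D, 2.27-fold lower and the cholesterol exporter NPC1 1.75-fold higher. Metallothionein and zinc genes gave 1 higher (MT1X, 1.56-fold) and 1 lower (MT1F, at or below 1.03 CPM) of 7.

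Matrix and junction genes completed the lists. Of 33 matrix genes, 9 (27.3%) were lower, against 17.4% of all genes, and 3 (9.09%) higher, against 17.2%. COL7A1, the anchoring-fibril collagen, had 17.5, 3.88 and 3.23 CPM with the control hairpin and 32.5, 16.4 and 10.2 CPM with the ACSS2 hairpin (4.11-fold lower, edgeR adjusted p = 8.58e-05), and the laminin chain LAMB3 was 1.69-fold higher. Of 24 junction and keratin genes, 8 (33.3%) were lower and 4 (16.7%) higher, and the keratins divided. KRT19 went from 265 and 216 CPM in number 1 to 513 and 522 CPM in number 3 (2.15-fold), while KRT18 went from 394 and 292 CPM to 163 and 182 CPM (1.98-fold lower), and both passed (edgeR adjusted p = 3.37e-04 and 9.20e-04). KRT18 is also one of the luminal markers whose sum was lower in number 3. Without control replicate 1, control replicate 3 or ACSS2 shRNA replicate 3 the lower junction members were 5. Of 13 polyadenylated histone transcripts, 2 (15.4%) were lower, among them H2BC12 (2.26-fold), and 0 were higher by edgeR, also at an unadjusted p, with 0 by DESeq2 and 1 by limma.

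**Figure D4:**
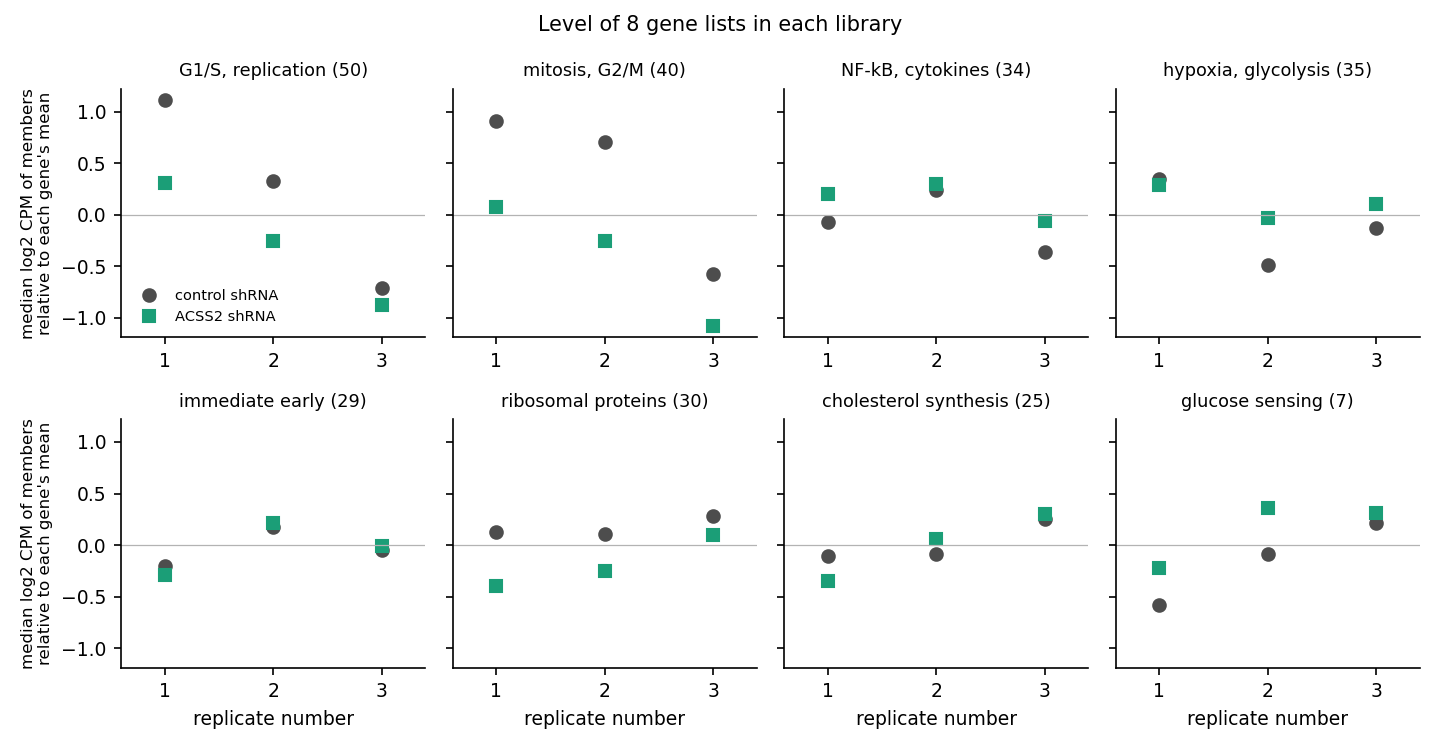
Median log2 CPM of the members of 8 gene lists relative to each gene's mean over the 6 libraries, by replicate number, with control shRNA as dots and ACSS2 shRNA as squares. Replication genes go from 1.11 and 0.31 in number 1 to -0.71 and -0.87 in number 3, and the distance between the hairpins is smaller in number 3.

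Outside the lists, the largest increases with a mean of at least 5 CPM were in genes with low levels in number 1. TEX19, a germline gene, had 0.456, 3.65 and 17.5 CPM with the control hairpin and 0.612, 6.85 and 27.4 CPM with the ACSS2 hairpin. It was higher in number 3 than in any other library of its hairpin (41.6-fold, log2 5.38, SE 0.28, edgeR adjusted p = 2.59e-07). KISS1, the kisspeptin precursor first described as a metastasis suppressor (chromosome 1, 204190137 to 204196491), had 0.854, 8.55 and 23.8 CPM with the control hairpin and 0.390, 2.83 and 19.1 CPM with the ACSS2 hairpin (36.0-fold, edgeR adjusted p = 2.39e-06). RBFOX3, the neuronal splicing factor NeuN, had 2.05, 16.5 and 37.9 CPM with the control hairpin and 1.17, 9.68 and 20.6 CPM with the ACSS2 hairpin (18.0-fold, edgeR adjusted p = 2.59e-07). In TEX19, KISS1 and RBFOX3 number 2 lay between in both hairpins, and RBFOX3 also belongs to the neural markers whose sum was higher in number 3. PLCH2, EXD3, ADAMTSL4, MAP3K7CL, GCAWKR and PPM1J were between 8.65-fold and 17.9-fold higher, and TNFRSF6B, the decoy receptor of FAS ligand, was 9.49-fold higher. P2RY11 was listed at 0 in control replicates 1 and 2 and ACSS2 shRNA replicate 1, and had 293, 206 and 218 counts in control replicate 3 and ACSS2 shRNA replicates 2 and 3. It was at least 192-fold higher over a floor of 3 counts in the number 1 libraries together, but it overlaps the readthrough transcript PPAN-P2RY11, and how reads were divided between them is uncertain. The call was lost in DESeq2 (adjusted p = 0.0795).

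The named decreases outside the lists included PI3, MUC5B, FAM111B and LFNG. PI3, the protease inhibitor elafin, had 22.8, 11.3 and 3.94 CPM with the control hairpin and 38.9, 32.5 and 5.34 CPM with the ACSS2 hairpin (6.58-fold lower, edgeR adjusted p = 9.48e-06). MUC5B, a gel-forming mucin, had 19.1, 1.31 and 0.904 CPM with the control hairpin and 14.5, 27.0 and 3.41 CPM with the ACSS2 hairpin (10.6-fold lower, SE 0.77 on the log2 scale, edgeR adjusted p = 0.00482). The number 1 and number 3 libraries of MUC5B did not overlap, but number 2 was low in control cells and the highest value in ACSS2 shRNA cells. FAM111B, a serine protease, was 7.13-fold lower and LFNG, a fringe glycosyltransferase that modifies Notch, 6.12-fold lower. PEDS1-UBE2V1 is a readthrough transcript listed at 0 in ACSS2 shRNA replicates 2 and 3 and at 8.85 CPM in control replicate 3, and its division of reads with its 2 parent genes is uncertain.

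Number 2 was intermediate for most genes called between numbers 1 and 3, but not in every list. It lay between numbers 1 and 3 in both hairpins for 58.5% of genes called higher and 57.4% of genes called lower, against 26.8% of all genes. Called genes were chosen on numbers 1 and 3, which lie apart in them, so the larger share describes these genes and is not a test. Over all members tested, number 2 lay between in both hairpins for 40 of 50 replication and 25 of 40 mitosis genes. The same held for 8 of 25 cholesterol synthesis, 8 of 30 ribosomal protein, 4 of 29 immediate early and 3 of 35 hypoxia and glycolysis genes. Number 2 against number 1 gave 1591 higher (12.2%) and 1444 lower (11.1%) genes, and number 3 against number 2 gave 621 higher (4.78%) and 896 lower (6.89%). These comparisons share libraries, and their values are set side by side only.

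The programs divided differently between these steps. The shares over all genes were 12.2% higher and 11.1% lower in number 2 over 1, and 4.78% higher and 6.89% lower in number 3 over 2. For replication genes the medians were -0.67 for number 2 over 1, with 30 of 50 lower, and -0.80 for number 3 over 2, with 32 lower. For mitosis genes they were -0.28, with 12 of 40 lower and 3 higher, and -1.08, with 37 lower. Hypoxia and glycolysis genes had -0.57 and 0.15. Immediate early genes had 0.58, with 14 of 29 higher and 1 lower, and -0.19, with 2 higher and 8 lower. NF-kB targets had 0.17, with 6 of 34 higher and 6 lower, and -0.38, with 1 higher and 13 lower.

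**Figure D5:**
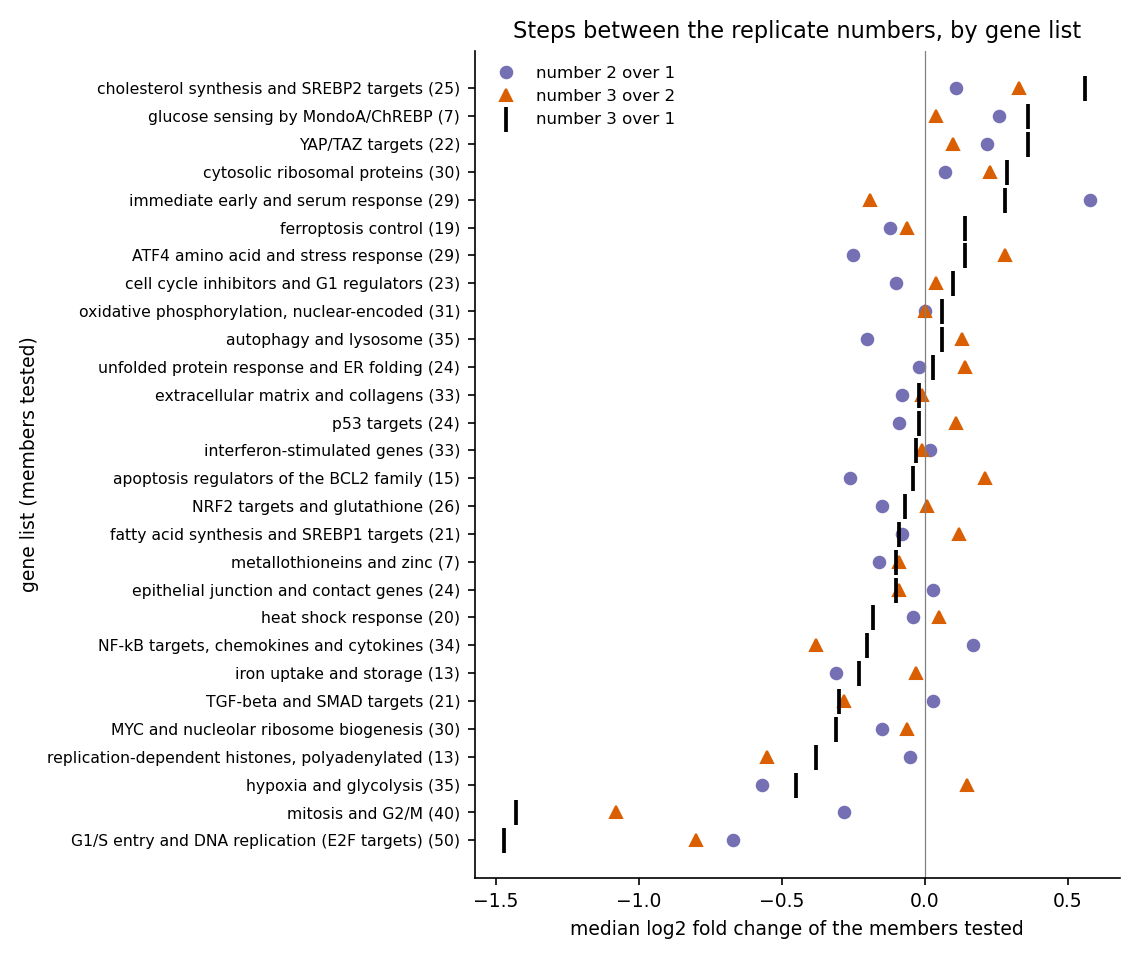
Median log2 fold change of the members of each list for number 2 over 1 (dots), number 3 over 2 (triangles) and number 3 over 1 (bars). The mitosis list has -0.28 and -1.08, whereas the hypoxia and glycolysis list has -0.57 and 0.15 and the immediate early list 0.58 and -0.19.

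In a group of genes number 2 was not intermediate but stood apart from both other numbers. In the additive model it was called above both in 233 genes (1.79%) and below both in 74 (0.569%), by at least 2-fold in 29 and 9 of them. Its CPM lay outside the other 2 numbers within each hairpin in 232 of the 233 and 73 of the 74. The immediate early list had 8 of its 29 members among the 233. FOS, named like FOSB, EGR1 and HES1 after the values were seen, had 4.78, 532 and 5.23 CPM with the control hairpin and 10.1, 525 and 13.1 CPM with the ACSS2 hairpin. The 2 number 2 libraries lay close to each other, and the other 4 libraries were all low (log2 fold change 6.25 for number 2 over 1, and -5.96 for number 3 over 2, edgeR adjusted p = 1.21e-07 and 1.25e-07). FOSB went from 5.52 and 9.57 CPM in number 1 to 377 and 304 CPM in number 2 and 10.5 and 11.6 CPM in number 3. EGR1 went from 40.8 and 46.4 CPM to 629 and 1283 CPM and 48.0 and 85.8 CPM, and the Notch and serum target HES1 from 22.4 and 41.6 CPM to 229 and 403 CPM and 10.2 and 25.7 CPM. FOS and FOSB are AP-1 subunits and EGR1 a zinc-finger factor, all with transcripts that last for minutes. FOS did not pass between numbers 3 and 1 (0.28, edgeR adjusted p = 0.467), nor did FOSB (0.56, edgeR adjusted p = 0.0785). EGR1 was higher (0.55, edgeR adjusted p = 0.0421) and HES1 lower (-0.89, edgeR adjusted p = 0.0013) in number 3 than in number 1. Of the mitosis list, ASPM, CENPE and ECT2 were above both in number 2. The histone transcripts H2BC21, H2AC18 and H2AC19 were as well, and H2AC18 and H2AC19 are near-identical copies listed with equal values, so which of them changed is uncertain.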

How the data were processed

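RNA-seq libraries from 6 cultures were analysed. Messenger RNA was enriched with oligo(dT) and sequenced by DNBSEQ, per the labels' protocols. HISAT, Bowtie2 and RSEM are named, with no version or role, per the submitters' processing notes. Per the file headers, the authors deposited read counts and TPM per gene. The deposited read counts were treated here like estimated counts, since 10.47% to 13.01% of values per library are not whole. Coordinates lie on GRCh38, by the chromosome accessions in the table. The table lists 17721 genes, beside 565 lines spilled from long text cells, which were left out, and 26 symbols turned into dates were restored. Further, 6 FPKM columns and genes of the mitochondrial genome were not analysed here.

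Counts were rounded and fitted with edgeR 4.0.16 (TMM, quasi-likelihood F test, 2 residual degrees of freedom) under R 4.3.3 after filterByExpr (minimum count 10, total 15), with hairpin and number as terms. P-values were adjusted by Benjamini-Hochberg over 13003 genes. The standard error is the log2 fold change over the square root of F. Intervals of counting error are not given, and total counts limit precision for genes near the floor of 3 counts. DESeq2 1.42.0 and limma 3.58.1 on log2(TPM + 1) were alternatives. The comparison was also tested on simulated counts.

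Labels give both hairpins the batch numbers 1 to 3, and same-numbered libraries deviated together from their hairpin's mean (correlations 0.72, 0.49 and 0.74). The number was therefore kept as a block. Between different numbers the correlations were at most -0.01. Deviations from a mean of 3 libraries sum to 0 within each hairpin, which pulls these values below 0, so they are not an independent comparison.

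The members and the 28 gene lists were chosen with earlier results of these data known. Named genes are the 12 with the largest change in each direction at a mean of at least 5 CPM with the same direction in both hairpins, up to 4 members per list and direction by smallest p, and ACSS2, E2F1, SLC7A11 and GPX4. Other members named were chosen after their values were seen.

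A few genes that the rule names are not reported here.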

Additional observations from a re-analysis of the deposited data

How the results depend on the processing

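Without a hairpin term the number 3 over 1 comparison gave 321 higher and 300 lower genes, with 19 replication and 8 mitosis members lower. Leaving out 1 library, or both number 2 libraries, gave 1340 to 2298 higher and 1276 to 2302 lower genes. The values without control replicate 3 were 1340 and 1276. Over the same settings the members called lower were 40 to 46 of 50 for replication and 35 to 37 of 40 for mitosis. DESeq2 called 1709 higher and 1797 lower, 3440 of them shared with edgeR in the same direction. Limma on log2(TPM + 1) called 1767 and 2594, and with a length and GC offset edgeR called 2371 and 2891. With the replicate block the hairpin called 1657 higher and 1608 lower genes, against 3 and 6 without it. Without replicate 1, 2 or 3 and without the block edgeR called 0 in each direction, with 1564, 582 and 1661 genes at an unadjusted p under 0.05.

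Medians of 3 lists changed sign. The ATF4 list (0.14) ranged from -0.02 to 0.31 when 1 library or number 2 was left out, with -0.02 where the missing one was number 1 or number 3 of the ACSS2 hairpin. The ferroptosis list (0.14) was at -0.01 with limma at a pseudocount of 1, -0.01 at 0.1 and -0.12 with the length and GC offset. Leaving out libraries gave it -0.10 to 0.15, with -0.07 where control replicate 1 was missing and -0.06 and -0.10 where number 1 or number 3 of the ACSS2 hairpin was. The metallothionein list (-0.10) was at 0.00 with DESeq2, 0.01 with at least 1 CPM in every library, 0.00 without control replicate 2, and at 0.10 and 0.03 where number 1 or number 3 of the ACSS2 hairpin was missing. The cause of these changes was not tested.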
